A study of Mus musculus with 3 samples.

Results

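The complement components and receptors described here were 9 genes, C1qa, C1qb, C1qc, C3, C4b, C3ar1, C5ar1, Itgam and Cd55, of 33696 genes counted. They were taken by symbol and followed through 6 classes of cells: microglia, macrophages or monocytes, neutrophils, Muller glia, astrocytes and endothelial cells. The data were single-cell RNA counts from the retina of postnatal day 6 mice, with 1 library for each of 3 groups. WT was the comparison library. Tspan12 KO came from mice lacking Tspan12, a co-receptor component of Norrin signalling, in the whole body. Ctnnb1 cKO came from mice in which the beta-catenin gene Ctnnb1 was deleted in endothelial cells through Pdgfb-iCreERT after tamoxifen injections that began on postnatal day 1. The strain was C57BL/6 throughout. Each library was a pool of mice of both sexes, WT and knockout mice came from separate litters, and the sources used here do not say whether WT mice received tamoxifen. Before loading, retinal cells were enriched on beads against CD31, which marks endothelium, and against CD11b, the protein made from Itgam. The share of myeloid cells in a library, and any level of Itgam, therefore stand behind that selection.

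Complement is a cascade of plasma and locally made proteins that tags cells and debris for removal. C1q, built from the products of C1qa, C1qb and C1qc, starts the classical pathway by binding a target, and C4 and C3 are then split and deposited on it. Small fragments of C3 and C5 act through the receptors C3ar1 and C5ar1, deposited C3 is recognised by the integrin that contains the Itgam product, and Cd55 dismantles the enzymes that split C3. In the nervous system microglia are the known main source of C1q, and complement is known for its part in the pruning of synapses and in the clearance of cells and vessels.

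The 3 libraries held 9951, 14426 and 9151 barcodes with 92684519, 137114957 and 37008362 UMIs (unique molecular identifiers, 1 per captured RNA) in WT, Tspan12 KO and Ctnnb1 cKO. After filters on depth, mitochondrial share and doublets, 8989, 12732 and 8451 cells remained, and 21 to 37 barcode sequences were shared by pairs of libraries. Ctnnb1 cKO stood apart: the median mitochondrial share of its barcodes was 0.374%, against 2.31% in WT and 1.80% in Tspan12 KO. With 1 library per group, genotype and library cannot be told apart, no test was possible, and the intervals below are 95% intervals of counting error only. Levels are given as CPM, the UMIs of a gene per 1000000 UMIs of all cells of a class in a library. Tspan12 transcripts were still present in endothelial cells of the library labelled Tspan12 KO, at 84.2 CPM against 95.9 in WT, and Ctnnb1 stood at 443 CPM in endothelial cells of Ctnnb1 cKO against 523 in WT. The sources used here do not give the deleted part of either gene, so these counts at the 3' end do not check the labels.

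Microglia numbered 288 in WT, 368 in Tspan12 KO and 2132 for Ctnnb1 cKO, and all 8 of their markers (among them Cx3cr1, P2ry12 and Tmem119) were detected in each library. Their median depth was 9660.5, 7436 and 3069 UMIs per cell. Macrophages numbered 1, 22 and 296, so no macrophage level is given for WT. They carried Pf4, Mrc1 and F13a1, at 8644, 2420 and 1631 CPM in Ctnnb1 cKO, and of the monocyte markers in the list Ccr2 was at 0, Ly6c2 at 1.07 CPM and Plac8 at 8.52 CPM there. In Tspan12 KO all 3 were at 0. The neutrophil class held 22, 1 and 100 cells, and its marker sums went against its label in WT but not in Ctnnb1 cKO. UMIs of at least 3 neutrophil markers were found in 5 cells of WT and 12 of Ctnnb1 cKO, and of at least 3 macrophage markers in 11 and 40. The macrophage list includes Lyz2 and Plac8, and Plac8 was itself among the leading genes of the neutrophil class. The 10 neutrophil markers summed to 4538 CPM in WT and 47426 in Ctnnb1 cKO, and the 10 macrophage markers to 9901 and 6515. Muller glia numbered 982, 820 and 449, astrocytes 21, 49 and 21, and endothelial cells 538, 291 and 2710. The Muller glia cluster carried 5 of 8 Muller glia markers and 6 of 8 markers of retinal progenitors. By count of markers its name is therefore not settled, and the class may hold progenitors. Rods, which should make none of the members, were the background class, with 1567, 2688 and 1835 cells. Of the Ctnnb1 cKO rods, 1763 were in cluster 7, which held 21 cells of WT and 34 of Tspan12 KO. That cluster reached 3 of 8 rod markers, the least the naming rule allowed. Clusters 1 and 5, with most rods of the other libraries, reached 6 and 8. Rod levels of Ctnnb1 cKO thus rest mainly on cluster 7. The complement genes were left out of the genes used for clustering.

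Promoters from RefSeq (GRCm38.p6) were found for 7 of the 9 members, all but C1qa and C4b. The C1qb and C1qc promoters are shown because both encode chains of C1q, the most abundant members in microglia, and lie near each other on chromosome 4, and that of Itgam because its product was the handle of the enrichment. Each is read 5' to 3' on the gene's strand and ends at the base before the annotated start of transcription. Capitals mark GAGGAA or its reverse complement TTCCTC, the core letters of sites of the myeloid factor PU.1. That of C1qb is chr4:136886201-136886450 (minus strand), that of C1qc is chr4:136892915-136893164 (minus strand), and the last 120 bases for Itgam are chr7:128062520-128062639 (plus strand).
C1qb: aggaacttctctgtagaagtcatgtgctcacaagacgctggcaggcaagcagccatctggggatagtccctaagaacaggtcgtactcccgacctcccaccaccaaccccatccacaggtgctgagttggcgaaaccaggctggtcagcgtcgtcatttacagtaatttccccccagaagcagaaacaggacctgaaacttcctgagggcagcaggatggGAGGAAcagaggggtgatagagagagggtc
C1qc: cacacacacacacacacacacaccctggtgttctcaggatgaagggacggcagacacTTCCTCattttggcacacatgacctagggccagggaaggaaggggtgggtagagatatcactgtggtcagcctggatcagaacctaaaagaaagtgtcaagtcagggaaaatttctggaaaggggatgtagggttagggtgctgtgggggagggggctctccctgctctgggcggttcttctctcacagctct
Itgam: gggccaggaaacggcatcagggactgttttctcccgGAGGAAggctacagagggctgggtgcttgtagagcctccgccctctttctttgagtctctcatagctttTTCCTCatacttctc
The 6 letters occurred on either strand within the 250 bases before the start in C1qb, C1qc and Itgam, 3 of the 7 members found, with 2 occurrences in Itgam. Of 27025 mouse genes in the same table, 23.1% held them in that window. The core of interferon-stimulated response elements, GAAA repeated after a gap of 2 bases (3.04% of promoters), was in none of the 7 windows. TTGCNNAA, the core of C/EBP sites (9.55% of promoters), was found in C3 and in no other of the 7. These are matches of letters on both strands, without data on binding.

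The 3 chains of C1q were abundant in microglia of every library. C1qa, the A chain, stood at 5451 CPM in WT, 5134 in Tspan12 KO and 3333 for Ctnnb1 cKO. C1qb, the B chain, stood at 6574, 4650 and 4842 CPM in the same order. C1qc, the C chain, stood at 5229, 5674 and 3902 CPM. The interval of each was within a few percent of its value (for C1qa in Ctnnb1 cKO, 3292 to 3375). After each cell was thinned to 2000 UMIs, 99.4% to 100% of microglia in every library held a UMI of each chain, among 241, 311 and 1786 cells deep enough (47, 57 and 346 left out). The median thinned microglial cell held 11 C1qa UMIs in WT, 10 in Tspan12 KO and 6 for Ctnnb1 cKO. For C1qb the medians were 13, 9 and 10 UMIs, and for C1qc 10, 11 and 8. Expression of C1q was thus a property of nearly every microglial cell in these libraries. At an equal depth of 2000 UMIs the libraries differed in the share of a cell's UMIs that C1q made up.

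The receptors were found in microglia at lower levels. C3ar1, the receptor for the C3a fragment, stood at 370 CPM in WT, 318 in Tspan12 KO and 268 for Ctnnb1 cKO. C5ar1, the receptor for the C5a fragment, stood at 215, 264 and 58.9 CPM. Itgam, the alpha chain of complement receptor 3, stood at 257, 296 and 348 CPM. Thinned to 2000 UMIs, 49.0%, 42.1% and 37.8% of microglia held a C3ar1 UMI (70.5%, 70.1% and 49.3% without thinning). For C5ar1 the thinned shares were 24.5%, 28.9% and 9.69% (unthinned 50%, 54.6% and 14.9%), and for Itgam 34.0%, 44.7% and 44.6% (unthinned 64.2%, 68.5% and 57.0%). In thinned rods the share with a UMI of any of these 3 genes was at most 1.26%. The receptors were therefore well above background in all 3 libraries, and C5ar1 was the one with a low library, Ctnnb1 cKO.

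C3, C4b and Cd55 were scarce or undetected in microglia. C3, the central protein of all pathways, stood at 2.94 CPM (8 UMIs) in WT, 6.03 (16 UMIs) in Tspan12 KO and 5.62 (42 UMIs) for Ctnnb1 cKO, with overlapping intervals. C4b, the mouse gene for complement C4, had 1, 1 and 63 UMIs. Its near-identical neighbour C4a, whose reads the counting could share, had at most 6 UMIs in any of the classes. Cd55, which shields host cells, had no UMI in any microglial cell, which allows up to 1.1, 1.13 and 0.402 CPM at 3 UMIs per library.

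**Figure D1:**
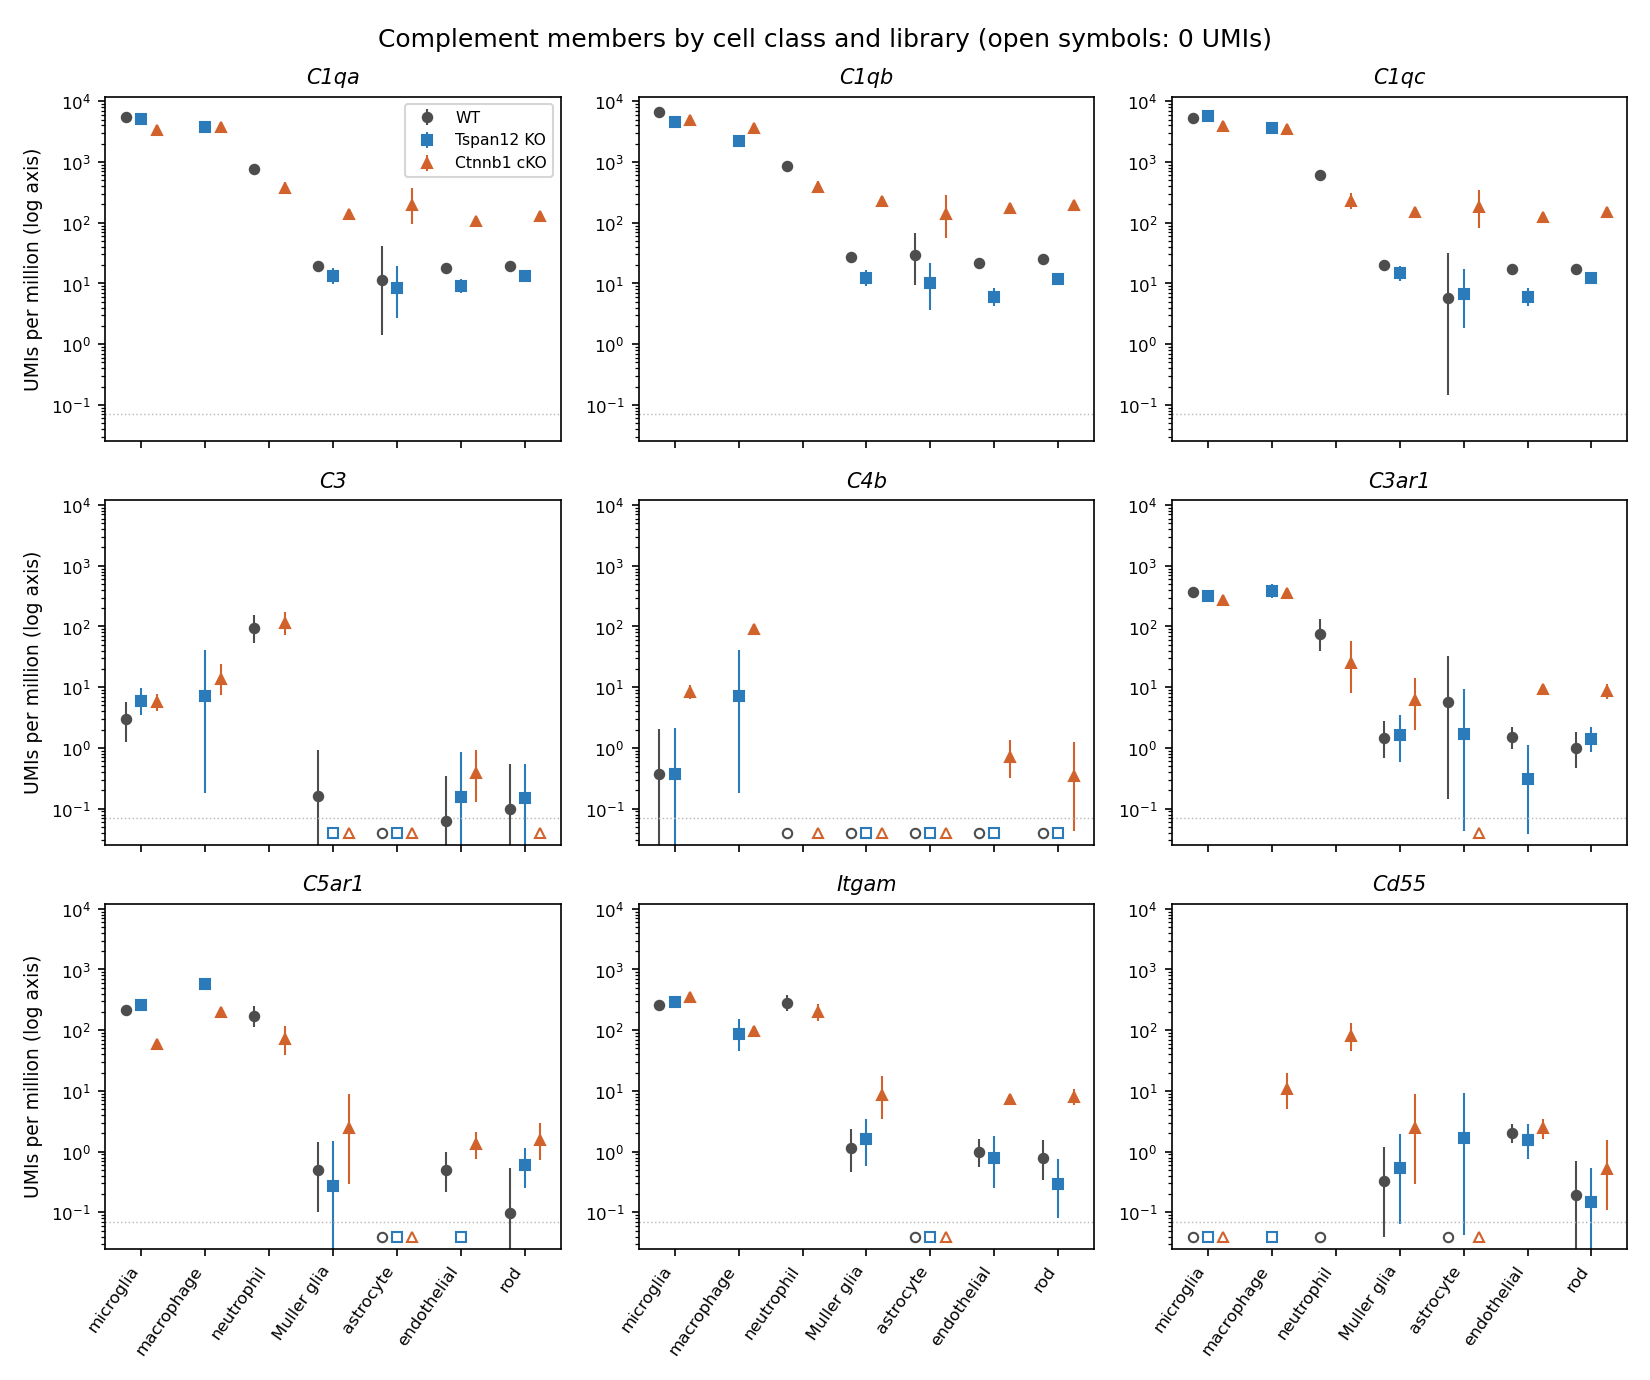
Levels of the 9 members in CPM (log axis) in 6 cell classes and in rods, for each of the 3 libraries, with 95% Poisson intervals. Open symbols below the dotted line mark 0 UMIs, and classes with under 10 cells in a library are not drawn. The C1q chains are at 2208 to 6574 in microglia and macrophages, and their levels in Muller glia and endothelial cells lie near those in rods of the same library, or below them in endothelial cells of Tspan12 KO.

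The question of the design was what differs from WT in each knockout. Each knockout library was set against the same WT library, so that the 2 comparisons share it. A gene was called past 2-fold where the ratio of CPM + 5 was at least 2 in either direction and the 2 libraries together held at least 50 UMIs. In microglia of the library labelled Tspan12 KO, 6 members had enough UMIs and 0 of them were past 2-fold, where 0.509% of 8834 genes were called higher and 1.09% lower. Their median log2 ratio was 0.02, against 0.07 over all genes tested. C1qb had the largest difference, at a log2 ratio of -0.50 (-0.53 to -0.47), 4650 CPM against 6574. The other chains were closer to WT, with log2 ratios of -0.09 (-0.12 to -0.05) for C1qa and 0.12 (0.08 to 0.15) for C1qc. Among the receptors the log2 ratios were -0.22 for C3ar1, 0.30 for C5ar1 and 0.20 for Itgam. All of these were within 2-fold.

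In microglia of Ctnnb1 cKO, C5ar1 was lower and C4b higher than in WT. These were the 2 members past 2-fold of 8 with enough UMIs, 1 in each direction, where 4.69% of 10503 genes were called higher and 4.77% lower. The median log2 ratio of the 8 was -0.43, against 0.04 over all genes tested. C5ar1 was at 58.9 CPM (440 UMIs) against 215 (585 UMIs), a log2 ratio of -1.87 (-2.05 to -1.69). C4b was at 8.43 CPM against 0.37, a log2 ratio of 4.52 (1.99 to 9.84), whose width comes from the single C4b UMI in WT microglia. The call for C4b was lost in 5 other settings, the removal of cells with macrophage markers among them, in which the UMI minimum was no longer met. The C1q chains were all lower, with log2 ratios of -0.71 (-0.74 to -0.68) for C1qa, -0.44 (-0.47 to -0.42) for C1qb and -0.42 (-0.45 to -0.39) for C1qc. C3ar1 was lower too, at -0.47 (-0.58 to -0.36), and Itgam was higher, at 0.44 (0.32 to 0.56). The interval of C3 (-0.17 to 2.24) held 0.

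**Figure D2:**
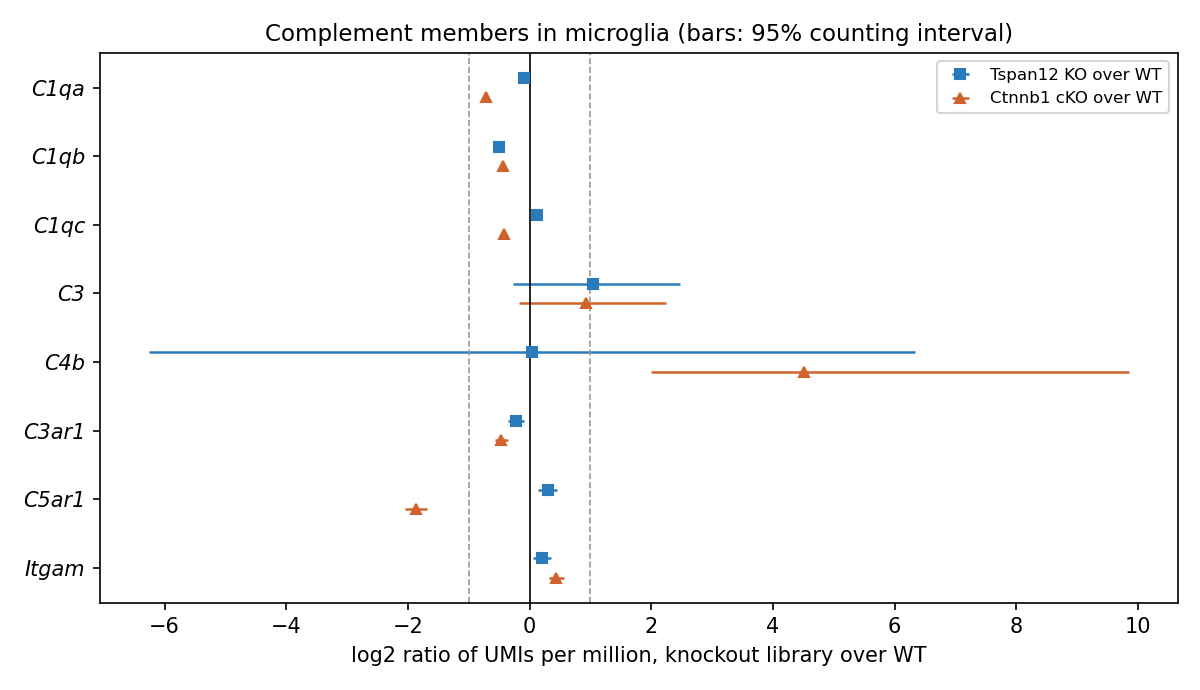
Log2 ratio of CPM in microglia, each knockout library over WT, for the 8 members with UMIs in both libraries. Bars are 95% counting intervals and dashed lines mark 2-fold, to which the call adds 5 CPM. C5ar1 lies at -1.87 in Ctnnb1 cKO and at 0.30 in Tspan12 KO, and the bars of C3 and C4b are wide because of their few UMIs.

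The microglia of the libraries fell mostly into different clusters. Cluster 18, led by Gpr34, Clec7a and Cd53 (with C5ar1 seventh among its leading genes), held 58.3% of WT and 69.0% of Tspan12 KO microglia but 0.891% of those of Ctnnb1 cKO. Cluster 6, led by Cd300lf, Il1b and Ccl4, held 86.8% of Ctnnb1 cKO microglia and 4.17% and 4.08% of those of WT and Tspan12 KO. Cluster 24, led by Hmox1, Clec7a and Lgals3, held 34.0%, 21.5% and 2.58%, and cluster 23, led by genes of dividing cells, held 3.47%, 5.43% and 9.71%.

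The level of C5ar1 was lower in Ctnnb1 cKO than in WT within each of the 4 clusters, beyond counting error in 3 of them. In cluster 6 it was at 56.3 CPM (50.6 to 62.6) against 141 (77.4 to 237), and in cluster 18 at 34.8 CPM (9.48 to 89.1, 19 cells) against 236 (217 to 258). In cluster 24 it was at 31.7 CPM (3 UMIs) against 115, a log2 ratio of -1.86 (-4.23 to -0.17). In cluster 23 it was at 77.8 CPM against 122, and the interval of the log2 ratio (-1.36 to 0.13) held 0. Tspan12 KO lay above WT in cluster 6, with 822 CPM in 15 cells, and in cluster 18, with 276, and below it in cluster 24, with 24.4. Across depth the difference kept its direction: cells under 2000 UMIs held 30.3 CPM of C5ar1 in Ctnnb1 cKO and 99.1 in WT, those of 2000 to 5000 UMIs held 50.7 and 89.9, and those of at least 5000 UMIs held 81.8 and 226. Below 5000 UMIs the WT levels rest on 6 and 14 UMIs, and there the intervals of WT and Ctnnb1 cKO overlapped. Among cells with at least 3 UMIs of 12 G2/M genes C5ar1 was at 68.9 CPM against 181, and among the others at 55.8 against 230.

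For C3ar1 the lower level in Ctnnb1 cKO was not found at every depth. Cells under 2000 UMIs held 214 CPM against 215 in WT, those of 2000 to 5000 held 249 against 141, and those of at least 5000 held 318 against 388. By cluster, C3ar1 of Ctnnb1 cKO lay below WT throughout, beyond counting error except in cluster 24. Its log2 ratio was -0.81 (-1.22 to -0.37) in cluster 6 and -0.54 (-1.10 to -0.02) in cluster 18. Cluster 23 had -0.61 (-1.02 to -0.17) and cluster 24 had -0.19 (-1.27 to 0.79). Depth ranges were not split further by cluster, so depth and cluster were not separated. Itgam was higher in Ctnnb1 cKO in all 3 depth ranges, at 300 CPM against 66.1, 337 against 64.2 and 381 against 273. The WT values of 66.1 and 64.2 rest on 4 and 10 UMIs. Tspan12 KO was at 92.3 and 265 CPM in those ranges.

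The other members varied with cluster in their own ways. C3ar1 was lowest in cluster 24 in all libraries, at 144, 141 and 127 CPM in WT, Tspan12 KO and Ctnnb1 cKO, against 391, 330 and 270 in cluster 18. Itgam was lowest there too, with 82.5, 73.3 and 148 CPM in cluster 24 and 283, 325 and 522 in cluster 18. C1qb went the other way in all 3 libraries, with 8382, 5073 and 4460 CPM in cluster 24 and 6523, 4754 and 3488 in cluster 18. In Tspan12 KO the intervals of these C1qb levels overlapped. C1qa and C1qc were higher in cluster 24 than in cluster 18 in WT too, but lower there in both knockout libraries. Among those lower levels, only for C1qc of Tspan12 KO (5158 against 5831 CPM) did the intervals not overlap. C1qb was lower in Ctnnb1 cKO than in WT in 3 of the 4 clusters, with log2 ratios of -0.90 (-1.05 to -0.76) in cluster 18, -0.42 (-0.52 to -0.32) in cluster 23 and -0.91 (-1.07 to -0.76) in cluster 24. In cluster 6, which holds most Ctnnb1 cKO microglia but 12 cells of WT, it was higher, at 0.20 (0.06 to 0.34).

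**Figure D3:**
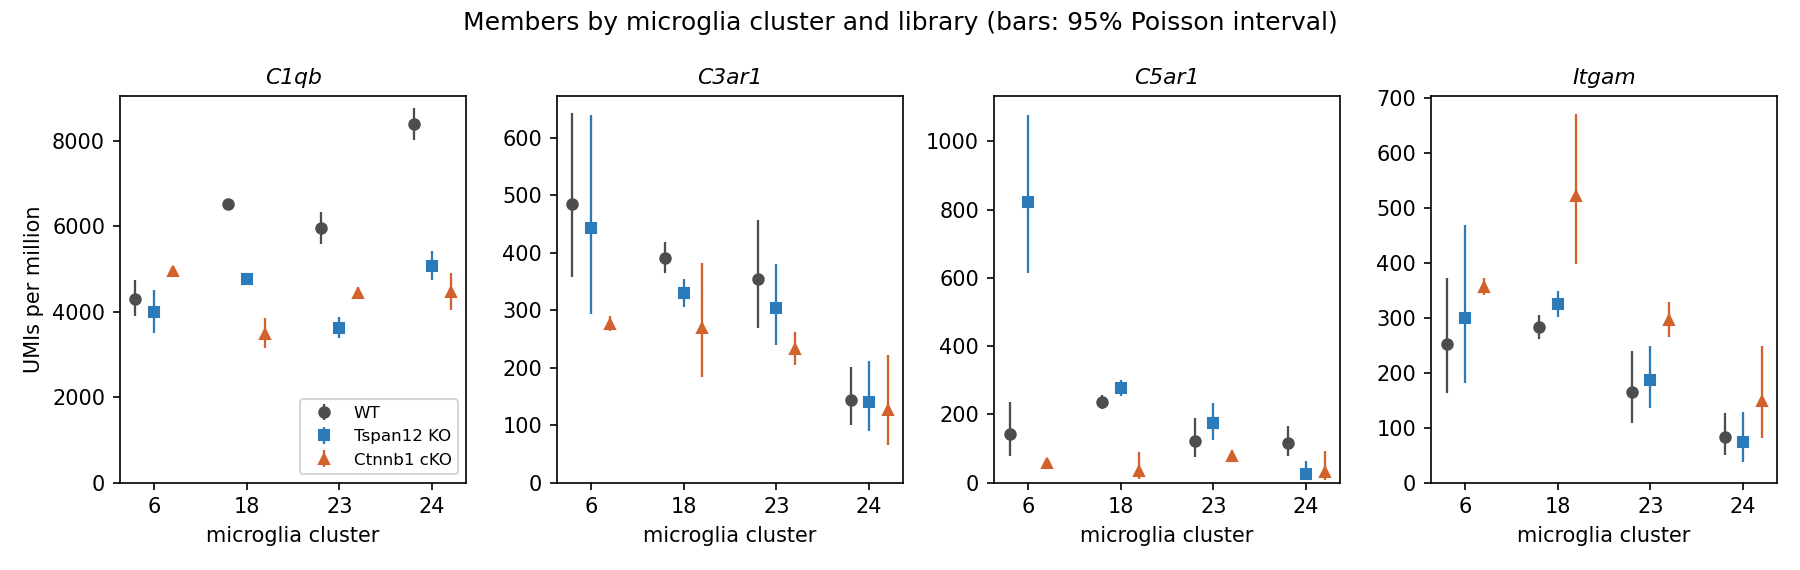
Levels of C1qb, C3ar1, C5ar1 and Itgam in CPM in the 4 microglia clusters of each library, with 95% Poisson intervals. C5ar1 of Ctnnb1 cKO lies between 31.7 and 77.8 in all 4 clusters and below WT in each, while C1qb of Ctnnb1 cKO lies above WT in cluster 6.

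Within a library, microglial cells with more of 1 C1q chain tended to hold more of the others. Over thinned cells Pearson's r between pairs of chains was 0.49 to 0.55 in WT (241 cells), 0.40 to 0.47 in Tspan12 KO (311 cells) and 0.25 to 0.28 in Ctnnb1 cKO (1786 cells). Between a C1q chain and C3ar1, C5ar1 or Itgam, r lay between -0.16 and 0.10 in every library. Cells of 1 library share its depth and free RNA, so these values are a description. The proportion of the chains differed between libraries: for each C1qa UMI, microglia held 1.21 C1qb UMIs in WT, 0.91 in Tspan12 KO and 1.45 for Ctnnb1 cKO.

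Beside the members, other lists differed in microglia. Genes of the interferon response were higher in Ctnnb1 cKO, with 6 of 10 past 2-fold and a summed level of 509 CPM against 213 in WT and 181 in Tspan12 KO. Genes that respond to tissue dissociation, among them Fos and Jun, summed to 15243 CPM in WT, 11722 in Tspan12 KO and 10051 for Ctnnb1 cKO. Endothelial markers summed to 175, 89.3 and 387 CPM in microglia, with 5 of 9 past 2-fold higher in Ctnnb1 cKO, and neutrophil markers to 123, 156 and 174 CPM. Markers of erythrocytes summed to 60.7, 400.3 and 456 CPM, with 4 of 4 tested past 2-fold higher in Tspan12 KO and 3 of 4 in Ctnnb1 cKO, and the G2/M genes to 499, 600 and 943 CPM. Macrophage markers summed to 1966, 1703 and 1857 CPM, with F13a1, Ly6c2 and Cd163 at 0 in WT and none at 0 in Ctnnb1 cKO. The part of these lists in the levels of the members was not tested.

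Macrophages held C1q at levels near those of microglia. In Ctnnb1 cKO (296 cells) C1qa was at 3772 CPM, C1qb at 3687 and C1qc at 3496. Relative to microglia of the same library the log2 ratios were 0.18 (0.13 to 0.23), -0.39 (-0.44 to -0.34) and -0.16 (-0.21 to -0.11). In Tspan12 KO (22 cells) they were -0.46, -1.07 and -0.67. The order of the 2 classes for C1qa was therefore not the same in the 2 libraries, and C1qb was lower in macrophages in both.

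The receptors separated the 2 classes in a like manner in both libraries. C5ar1 was higher in macrophages, at 572 CPM against 264 in Tspan12 KO and 199 against 58.9 in Ctnnb1 cKO, log2 ratios of 1.11 (0.76 to 1.45) and 1.76 (1.5 to 2.01). Itgam was lower in macrophages, at 86.9 CPM against 296 and 95.9 against 348, log2 ratios of -1.77 (-2.73 to -0.95) and -1.86 (-2.18 to -1.56). The beads against the Itgam product stand before both levels, and which cells they held was not measured. C3ar1 was at 391 CPM against 318 and at 358 against 268, with intervals of the log2 ratio of -0.13 to 0.70 and 0.25 to 0.58. Thus C3ar1 differed beyond counting error only in Ctnnb1 cKO.

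C4b was above all a macrophage transcript in Ctnnb1 cKO. Macrophages held 84 of its UMIs, 52.2% of those in the library, at 89.5 CPM (71.4 to 111), 10.6 times the level in microglia (7.56 to 14.9). The 22 macrophages of Tspan12 KO held 1 C4b UMI, at 7.24 CPM (0.18 to 40.3). In Ctnnb1 cKO 47 of 296 macrophages held a C4b UMI, against 56 of 2132 microglia. Transcripts of other macrophage genes also occurred in those microglia, at widely spread percentages of the macrophage level. F13a1 was at 0.39%, Mrc1 at 0.85%, Pf4 at 0.86%, Cd163 at 0.97%, Ms4a7 at 4.16%, Ms4a6c at 9.52% and Lyz2 at 43.4%. Ly6c2 and Plac8, scarce in macrophages themselves, were at 75.4% and 124%. The complement genes Fcna, Cfp, C4b and C2 were at 1.17%, 1.60%, 9.42% and 13.8%. Among the 56 microglia with C4b, 13 held UMIs of at least 2 of 8 macrophage markers, as did 164 of all 2132 microglia. Without those 164, C4b was at 6.83 CPM from 46 of its 63 UMIs. Cells with 1 of the markers were not set apart, and the source of C4b in microglia was not tested. C3 was at 13.9 CPM in these macrophages (13 UMIs), 2.46 times the microglial level (1.21 to 4.68).

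**Figure D4:**
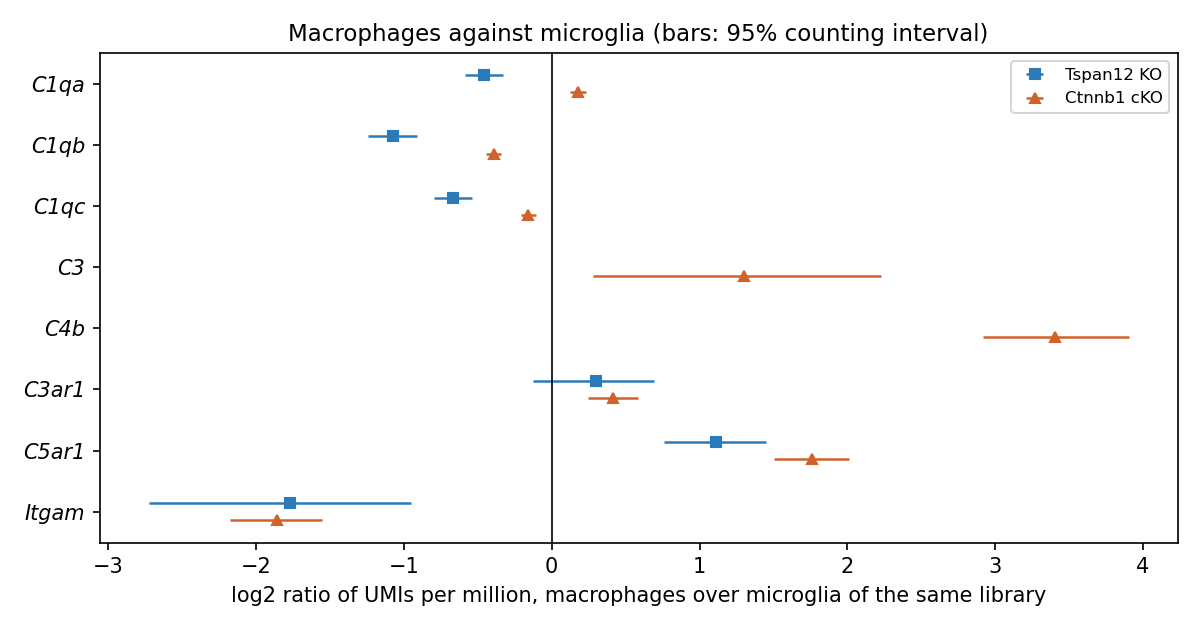
Log2 ratio of CPM, macrophages over microglia of the same library, for members with at least 10 macrophage UMIs. Bars are 95% counting intervals. C5ar1 lies right of 0 and Itgam left of 0 in both libraries, and C4b is at 3.41 in Ctnnb1 cKO.

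In the neutrophil class C3 was the member that stood out. It was at 95.1 CPM (15 UMIs) in WT and 116 CPM (23 UMIs) in Ctnnb1 cKO, against 2.94 and 5.62 in microglia, log2 ratios of 5.01 (3.68 to 6.46) and 4.36 (3.56 to 5.13). Cd55 had 16 UMIs (80.4 CPM) in Ctnnb1 cKO and 0 in WT, where 0 allows up to 19.0 CPM. Itgam was at 285 and 196 CPM, C5ar1 at 171 and 70.4, and C3ar1 at 76.1 and 25.1, while C4b had no UMI. The 5 and 12 cells with at least 3 neutrophil markers held 2 of the 15 C3 UMIs of WT, 7 of the 23 of Ctnnb1 cKO and 2 of its 16 Cd55 UMIs. Cells with fewer neutrophil markers held most of these UMIs, but they were also most of the 22 cells of WT and the 100 of Ctnnb1 cKO. The counts therefore do not place C3 or Cd55 apart from the cells with the markers. Igkc was among the leading genes of the class. When Ctnnb1 cKO was clustered alone, Igkc led a cluster of 24 B cells, beside 79 neutrophils. The class may thus mix cell types, and which of them held C3 and Cd55 was not tested.

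The C1q chains passed the 2-fold mark downwards in this class, 3 of 4 members with enough UMIs, where 16.1% of 1161 genes were called lower and 12.9% higher in Ctnnb1 cKO. C1qa was at 372 CPM against 780 in WT, C1qb at 392 against 875 and C1qc at 231 against 609. Of the 357 C1q UMIs in the 22 WT cells, 340 lay in 2 cells, and 9 cells held none. In Ctnnb1 cKO 99 of 198 lay in 6 cells. The level of C1q in this class thus rested on a few cells.

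In Ctnnb1 cKO endothelial cells, where Ctnnb1 was to be deleted, the C1q chains were higher than in WT, but no higher than in rods. C1qa was at 17.9 CPM in WT, 9.03 in Tspan12 KO and 109 for Ctnnb1 cKO, and in rods at 19.4, 13.2 and 129. C1qb was at 21.6, 6.07 and 174 CPM, and in rods at 25.5, 11.8 and 198. C1qc was at 17.1, 6.07 and 125 CPM, and in rods at 17.1, 12.3 and 150. Thinned endothelial cells held a C1qb UMI in 3.65%, 1.53% and 28.5% of cases (32.9%, 12.4% and 45.6% unthinned), and thinned rods in 6.12%, 2.40% and 30.5%, from median depths of 15785, 14561 and 3346.5 UMIs in endothelial cells and 3207, 1983.5 and 1627 in rods. These shares were at or below those of the background class and are read as background.

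By the 2-fold rule 5 of 6 members with enough UMIs were higher in endothelial cells of Ctnnb1 cKO, where 4.05% of 12800 genes were called higher and 5.15% lower. They were C1qa, C1qb, C1qc, C3ar1 and Itgam, with log2 ratios of 2.60, 3.0, 2.87, 2.62 and 2.88. For C3ar1 the ratio was 0.31 with cells thinned to 2000 UMIs and 0.17 with the level of rods subtracted. In the library labelled Tspan12 KO, 1 of 3 members was past 2-fold, C1qb at -1.83, where 1.11% of 12206 genes were called lower and 0.582% higher. When the level in rods of the same library was subtracted, 0 members were past 2-fold in either library. Differences under 0 were set to 0. The C1q chains were at or below rods in all 3 libraries, and Itgam was below them in Ctnnb1 cKO. For these genes the outcome therefore followed from the levels and adds nothing to them.

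In endothelial cells, Muller glia and rods the C1q chains stood at percentages of their microglial level close to those of other microglia genes. In endothelial cells of Ctnnb1 cKO, C1qa, C1qb and C1qc were at 3.26%, 3.59% and 3.20% of their level in microglia, and the 8 microglia markers were at 1.56% to 4.27%, with a median of 2.89%. In rods of that library the chains were at 3.88%, 4.10% and 3.84% and the median of the markers was 3.02%. In endothelial cells of WT the chains were at 0.33% and the median of the markers at 0.42%. In those of Tspan12 KO the chains were at 0.11% to 0.18% and the median of the markers at 0.22%. The ratio of C1qb to C1qa UMIs in endothelial cells was 1.21 in WT, 0.67 in Tspan12 KO and 1.60 for Ctnnb1 cKO, next to 1.21, 0.91 and 1.45 in microglia. Microglia were 3.20%, 2.89% and 25.2% of the cells of the libraries, in the same order of size as the percentages.

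**Figure D5:**
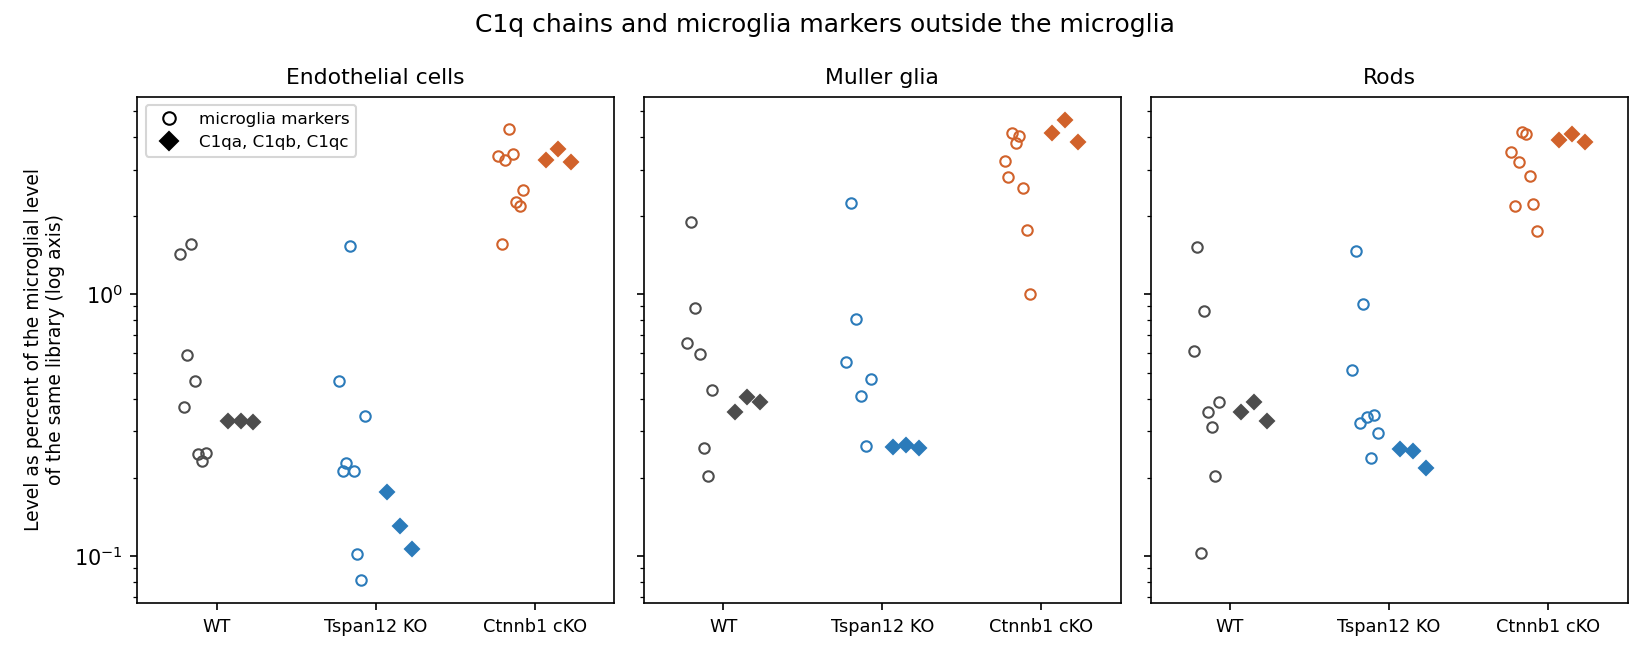
Levels of C1qa, C1qb and C1qc (filled) and of the 8 microglia markers (open) in endothelial cells, Muller glia and rods, each as a percent of the microglial level of the same library (log axis). Markers with 0 UMIs are not drawn. In all 3 classes the values of Ctnnb1 cKO lie above those of the other libraries, and the C1q chains lie within the range of the markers or beside it.

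Muller glia showed the same picture. C1qa was at 19.4 CPM in WT, 13.4 in Tspan12 KO and 138 for Ctnnb1 cKO, C1qb at 26.8, 12.3 and 225, and C1qc at 20.2, 14.7 and 149. Relative to rods of the same library, the intervals of all 9 log2 ratios held 0. The 3 members with enough UMIs were all past 2-fold higher in Ctnnb1 cKO, where 3.22% of 10569 genes were called higher and 5.8% lower, and 0 of 3 were past 2-fold in Tspan12 KO, where 0.649% of 11395 genes were called higher and 0.202% lower. C3 had 1, 0 and 0 UMIs in Muller glia and C4b none, which allows up to 0.490, 0.804 and 3.64 CPM. In astrocytes C3 and C4b had no UMI in any library, and no member reached 50 UMIs, so 0 were called, where 5.95% of 3162 genes were called higher and 2.88% lower in Tspan12 KO, and 9.93% of 695 genes higher and 23% lower in Ctnnb1 cKO. Expression of C3 or C4b by glia was not detectable at this depth, and the 21 astrocytes of Ctnnb1 cKO held only 50126 UMIs in all.

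Cd55 was the member whose endothelial level exceeded that in rods in all 3 libraries. It stood at 2.05 CPM (33 UMIs) in WT, 1.56 (10 UMIs) in Tspan12 KO and 2.41 (31 UMIs) for Ctnnb1 cKO, with rods at 0.20, 0.15 and 0.53. The log2 ratios of endothelial cells over rods were 3.39 (1.42 to 6.49), 3.39 (1.16 to 6.62) and 2.19 (0.51 to 4.55). The intervals of the 3 endothelial levels overlapped. Endothelial cells held 62.3%, 28.6% and 49.2% of the Cd55 UMIs of WT, Tspan12 KO and Ctnnb1 cKO.

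The wider complement list of 52 genes, the members included, had 26 genes at 20 CPM or more in a main class of at least 20 cells. In microglia of Ctnnb1 cKO 5 of its 21 genes with enough UMIs were past 2-fold higher and 3 lower, beside 4.69% and 4.77% of all genes tested. In those of Tspan12 KO 0 of 12 were past it, beside 0.509% and 1.09% of all genes. The median log2 ratio of the list was 0.42 and -0.01, against 0.04 and 0.07 over all genes tested. Of the classical pathway, C2, the enzyme precursor that pairs with C4, was at 1.47 CPM in WT, 2.64 in Tspan12 KO and 16.9 for Ctnnb1 cKO, with macrophages at 101 and 123 CPM in the last 2. Of the alternative pathway, Cfb, which pairs with C3, was at 13.2, 5.65 and 43.0 CPM. Both were past 2-fold higher in Ctnnb1 cKO.

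Among receptors in microglia, Itgax, the alpha chain of complement receptor 4, was at 30.5, 41.8 and 77.6 CPM in WT, Tspan12 KO and Ctnnb1 cKO, past 2-fold higher in the last. Itgb2, the beta chain that pairs with the products of Itgam and Itgax, was at 81.3, 91.6 and 119 CPM and within 2-fold. C5ar2, the second receptor for C5a, was at 21.0, 18.5 and 3.21 CPM, with a log2 ratio for Ctnnb1 cKO of -2.71 (-3.46 to -2.00), so both C5a receptors were past 2-fold lower there. In cluster 6, C5ar2 was at 3.9 CPM in Ctnnb1 cKO and at 20.2 in the 12 cells of WT. Cd93, a C-type lectin once taken for a C1q receptor, was at 9.94, 6.03 and 30 CPM in microglia and at 886, 1140 and 696 in endothelial cells. Of the regulators, Cr1l, which limits C3 activation on cell surfaces, was in microglia at 70.3, 51.3 and 45.4.

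Macrophages carried further components that microglia held at low levels. In Tspan12 KO and Ctnnb1 cKO, Fcna, a ficolin of the lectin pathway, was at 876 and 644 CPM in macrophages and at 8.67 and 7.5 in microglia. Colec12, a scavenger collectin, was at 355 and 225 CPM, and Cfp, which stabilises the alternative pathway, at 239 and 184. C6, a component of the terminal pathway, was at 22.4 CPM (21 UMIs) in Ctnnb1 cKO and had no UMI in Tspan12 KO. Of 7 genes of the terminal pathway it was the only one at 20 CPM or more in a main class. Itgb2 was at 171 CPM in the neutrophil class of WT and 457 in that of Ctnnb1 cKO.

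In endothelial cells, regulators of complement were a group of the list with several genes past 2-fold. Of 8 regulators with enough UMIs, 4 were past 2-fold higher in Ctnnb1 cKO and 0 lower. Of all genes tested there, 4.05% were called higher and 5.15% lower. In Tspan12 KO 0 of 6 were past 2-fold, beside 0.582% of all genes called higher and 1.11% lower. Cd59a, which blocks the membrane attack complex, was at 12.8 CPM in WT, 26.0 in Tspan12 KO and 113 for Ctnnb1 cKO. Clu was at 2.67, 7.47 and 11 CPM, and Susd4 at 3.60, 9.96 and 12.2. With 5 CPM added, both passed the 2-fold mark only narrowly in Ctnnb1 cKO. Rods held less Cd59a (7.20 CPM) than endothelial cells in Ctnnb1 cKO, and also less in the other libraries. Clu in rods was at 8.81, 7.93 and 13.2 CPM, as high as in endothelial cells or higher, and Susd4 at 3.72, 5.26 and 3.16. Cr1l was at 89.4, 63.0 and 67.0 CPM in endothelial cells and within 2-fold. Endothelial clusters differed in their part of each library: cluster 15 held 513 of the 538 WT cells, cluster 3 held 2103 of the 2710 Ctnnb1 cKO cells, and cluster 17, led by Eln, Rasd1 and Lrg1, held 560 cells of Ctnnb1 cKO and 1 of WT. In cluster 3 Cd59a was at 52.3 CPM in WT (24 cells), 70.3 in Tspan12 KO (73 cells) and 55 for Ctnnb1 cKO, and in cluster 17 of Ctnnb1 cKO it was at 353 CPM. In cluster 15 it was at 11.7 CPM in WT and 26.8 in the 47 cells of Ctnnb1 cKO (5 UMIs). Within cluster 3 WT and Ctnnb1 cKO thus had like levels of Cd59a. Interferon response genes moved in the same cells, with 10 of 10 past 2-fold higher in Ctnnb1 cKO and a summed level of 1336 CPM against 255 in WT, and their part in the regulators was not tested.

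The genes with the most similar patterns were found by Pearson's r of log2(CPM + 5) over 39 sums of a class in a library, which share library and depth. For C1qa they were C1qc (0.996), C1qb (0.988) and Ccl3 (0.986), and for C1qb they were C1qc, C1qa and Ccl4 (0.983). C3 was closest to Trem1 (0.983), Cd300ld and Rnase6, and C4b to Ccl8 (0.941), Adam33 and Cbr2. C3ar1 was closest to P2ry6 (0.981), Fcgr3 and Adgre1, and C5ar1 to Cd33 (0.976), Gm28417 and Ptafr. Itgam was closest to Il10ra (0.984), Slc11a1 and Dock2, and Cd55 to Igfbp6 (0.933), AA467197 and Ngp. The C1q chains and Itgam had the highest r with another gene, and Cd55, with few UMIs, the lowest.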

How the data were processed

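Counts came from 3 libraries of a 10x Genomics 3' kit. The authors made UMI counts per gene and barcode with Cell Ranger and deposited them as filtered matrices of raw counts. Per the file headers the software version differs from that in the study's methods, and the labels and the methods name different mouse builds (the labels GRCm39), so no coordinates were taken from the count files. Promoters are from RefSeq. The 9 members and all gene lists were chosen with earlier results of these data known.

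Barcodes were required to hold 500 UMIs, 250 genes and no more than 15% mitochondrial UMIs. The highest Scrublet scores were taken out as doublets at 0.8% per 1000 cells (760, 1656 and 665), because its automatic threshold marked 0, 0 and 347. Cells were clustered together (scanpy 1.11.5, 2000 variable genes without complement genes, 30 components, Leiden resolution 1, 30 clusters). A cluster took the class for which at least 3 markers reached a log2 fold of 1, and the tie rule for candidates, by markers among the 10 leading genes and then the mean fold, was settled after the clusters had been seen. Class names were rebuilt in this way, since no annotation was used.

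UMIs were summed per class and library and divided by the class total. Poisson, Clopper-Pearson and conditional binomial intervals are exact and cover counting error only. Ratios were tested on simulated data. TMM factors came from edgeR 4.0.16, the alternative scaling, which moved log2 ratios by 0.13 in endothelial cells and 0.11 in Muller glia of Ctnnb1 cKO. Named were the 9 members, the genes of the complement list at 20 CPM or more in a main class or past 2-fold, the 3 genes most similar to each member, and the leading genes of clusters, the last chosen after values were seen. Some values of the complement list are not reported here, though its counts cover all its genes. Mice were pooled within a library, so no replicates exist, and no column of per-sample values was left unmapped.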

Additional observations from a re-analysis of the deposited data

Results flagged for a closer look

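The C1q chains differed from WT in opposite directions in different cell classes of Ctnnb1 cKO, and these differences between classes were not tested, with 1 library per group. C1qa had log2 ratios of 2.83 in Muller glia, 2.60 in endothelial cells and -1.07 in the neutrophil class. For C1qb they were 3.07, 3.0 and -1.16, and for C1qc 2.88, 2.87 and -1.40. In Muller glia and endothelial cells the levels were near those of rods of the same library, and in the neutrophil class 340 of 357 C1q UMIs of WT lay in 2 cells.

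In the named classes outside the 6 described above, 5 of the 5 members with at least 50 UMIs were past 2-fold higher in Ctnnb1 cKO than in WT, where 3.31% of 15508 genes were. Rods, the background class, were 1835 of these 2648 cells in Ctnnb1 cKO and 1567 of 4069 in WT. The log2 ratios were 2.76 for C1qa, 3.0 for C1qb, 3.08 for C1qc, 3.0 for C3ar1 and 3.64 for Itgam, and that of C5ar1, with 16 UMIs against 13, was 2.18. C4b had 5 UMIs against 0. C1qb stood at 191 CPM there in Ctnnb1 cKO and 23.9 in WT.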

How the results depend on the processing

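No paired analysis was possible because each group had 1 library, and for the same reason no library could be left out. The 12 counts of members past 2-fold (microglia, endothelial cells and Muller glia, 2 knockout libraries, both directions) were recomputed in the other settings. This gave 136 recomputed counts in all, of which 117 stayed within 1.5 times. In Ctnnb1 cKO microglia the 1 member higher became 0 with thinned cells, the marker gate, libraries clustered alone, without cycling cells and, chosen after seeing the data, without cells with 2 macrophage markers, each time because C4b and C3 then held under 50 UMIs. In Tspan12 KO endothelial cells the 1 member lower became 0 with thinned cells, the marker gate, cluster 3 alone (chosen after seeing the data) and the level of rods subtracted, and 2 with the mean over cells, TMM scaling and a pseudocount of 1. In Ctnnb1 cKO endothelial cells the 5 members higher became 3 with thinned cells, the mean over cells and the marker gate, and 0 with the level of rods subtracted. In Tspan12 KO Muller glia 0 members lower became 1 without doublet removal, with the marker gate and with a pseudocount of 1. The cause was not tested except where stated.

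No called log2 ratio of a member changed sign. In Ctnnb1 cKO microglia C5ar1 ranged from -2.04 to -1.59, C4b from 3.97 to 5.45, C1qa from -0.78 to -0.62 and Itgam from 0.41 to 0.77, while C3ar1 ranged from -0.51 to -0.00. In Ctnnb1 cKO endothelial cells C3ar1 ranged from 0.17 to 2.75. In Tspan12 KO microglia C3ar1 ranged from -0.31 to 0.39. For all genes past 2-fold, 40 of 136 recomputed counts moved by over 1.5 times. In microglia of Ctnnb1 cKO they went from 493 to between 454 and 826 higher and from 501 to between 403 and 764 lower. Leiden resolution 0.5 and clustering each library alone gave no Muller glia class, so neither gives a value there. Both gave clusters named retinal progenitor, the largest at resolution 0.5 with 3110 cells. Thinned to 1000 UMIs, C5ar1 was found in 15.2%, 21.9% and 4.88% of microglia. Depth limits C3, C4b and Cd55, whose levels rest on few UMIs.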
